A study of Mus musculus with 10 samples.

Results

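Syndecans and glypicans are the 2 families of cell-surface proteins whose members carry heparan sulfate as a rule, and their transcripts were followed in the mouse first pharyngeal arch (PA1) with and without the transcription factor GRHL2. The members were taken by gene name from the deposited count table: the 4 syndecans *Sdc1*, *Sdc2*, *Sdc3* and *Sdc4* and the 6 glypicans *Gpc1*, *Gpc2*, *Gpc3*, *Gpc4*, *Gpc5* and *Gpc6*. They occupied 11 of the 22114 gene identifiers, because 2 identifiers carried the name *Gpc2*. All 10 genes passed the filter of at least 10 counts in at least 1 arch, as did 14561 genes in all, while the second *Gpc2* identifier did not.

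Arches were collected at E10.5 from male embryos on a background labelled C57BL/6 (the line had been back-crossed to C57BL/6J), 5 of them wild-type (*Grhl2+/+*) and 5 *Grhl2-/-*, and each arch gave 1 library. GRHL2 acts in epithelia. The null allele is a germline allele, so GRHL2 was lacking in every cell of these embryos and not only in the arch epithelium, and the arch was sequenced whole. It holds surface epithelium, neural crest-derived mesenchyme, mesoderm, vessels, blood and, where the dissection included them, parts of the cranial ganglia. In such tissue fewer cells of a type and less RNA per cell cannot be told apart.

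Both families present long heparan sulfate chains outside the cell. Syndecans cross the membrane and end in a short cytoplasmic tail with strongly conserved stretches that bind PDZ proteins and the cytoskeleton, whereas glypicans are folded proteins held to the membrane by a glycosylphosphatidylinositol (GPI) anchor. The chains bind fibroblast growth factors, bone morphogenetic proteins, Wnt and Hedgehog proteins and matrix proteins, and so shape where these ligands act. Syndecan 1 is the main syndecan of epithelia and is also made by condensing embryonic mesenchyme, syndecan 4 is widespread and sits in focal adhesions, and glypican 3 is an abundant embryonic glypican whose loss causes overgrowth in humans.

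Between 22188454 and 28801378 reads per arch were counted on genes. *Grhl2* itself was at 36.1, 33.5, 40.5, 31.8 and 35.8 CPM (counts normalized for library size, with TMM factors) in wild-type arches 1 to 5 and at 5.57, 3.49, 2.80, 6.33 and 4.48 CPM in *Grhl2-/-* arches 1 to 5, a log2 fold change of -3.02 ± 0.174 (SE) with limma-voom (FDR = 2.67e-06). The mesenchyme expected of this tissue was present in every arch, with all 10 ectomesenchyme markers at 435 counts or more. Their sum was between 1613 and 2060 CPM in wild-type and between 1331 and 1634 CPM in *Grhl2-/-* arches, all 10 had a log2 fold change below 0 (median -0.27), and 1 of them, *Msx1*, was lower (-0.66, FDR = 0.00595, limma-voom). Without wild-type arches 1 and 2 the value of *Msx1* was -0.51 (FDR = 0.0203), and those of *Alx4* (0.06) and *Pdgfra* (0.03) were above 0. The summed level of 12 epithelial markers was between 363 and 485 CPM in wild-type arches and between 179 and 272 CPM in *Grhl2-/-* arches, and 8 of the 12 were lower at FDR below 0.01. The summed level of 12 sensory neuron markers was 50.1 and 42.3 CPM in wild-type arches 1 and 2, against 631 to 1061 CPM in the other wild-type arches and 355 to 1373 CPM in the *Grhl2-/-* arches. Ganglion glia markers followed them, with 50.4 and 48.0 CPM in wild-type arches 1 and 2 and 81.2 to 238 CPM in the other 8 arches. Erythroid markers were highest in wild-type arch 1 (6244 CPM, against 2892 to 4499 CPM in the other arches of both genotypes). Macrophage markers were highest in *Grhl2-/-* arch 4 (64.1 CPM, against 20.03 to 40.6 CPM in the others). Neither sum was flagged by the outlier check given at the end. No marker of these lists was at 0 reads in any arch, although the lowest had 1 read. Results for the members are therefore also given without wild-type arches 1 and 2.

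One of the 10 members, *Sdc4*, was higher in *Grhl2-/-* PA1 at FDR below 0.01 and 0 were lower, when 0.879% of all genes tested were called higher and 1.09% lower. The wild-type and *Grhl2-/-* arches did not overlap in 2 members, *Sdc4* and *Sdc1*, and this was the case for 8.88% of all genes tested. The median log2 fold change of the 10 members was 0.08, and that of all genes was 0.01. With 10 genes these counts rest on 1 and 2 genes, and the other members are described by their levels and intervals.

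*Sdc4*, the focal adhesion syndecan, was the member that rose. It was at 33.8, 27.7, 28.4, 28.2 and 25.7 CPM in wild-type arches 1 to 5 (28.7 ± 3.0, SD, n = 5). It was at 35.4, 50.6, 41.6, 42.9 and 43.4 CPM in *Grhl2-/-* arches 1 to 5 (42.8 ± 5.39, SD, n = 5). All *Grhl2-/-* arches were above all wild-type arches, but the highest wild-type arch (arch 1) and the lowest *Grhl2-/-* arch (arch 1) were close. The log2 fold change was 0.57 ± 0.0939 (SE), with a 95% confidence interval of 0.37 to 0.78 and an FDR of 0.00506 by limma-voom, which corresponds to a 1.49-fold increase. The counts behind these values were between 636 and 1305 reads per arch. The direction was kept in every alternative fit, but the call was not. With the number in the arch labels as a block, the log2 fold change was 0.50 (FDR = 0.0222, limma-voom). With a sensory neuron covariate it was 0.59 (FDR = 0.0129, limma-voom). Without wild-type arches 1 and 2 the log2 fold change was 0.61 (FDR = 0.0185, limma-voom), and leaving out single arches gave FDR values between 0.00158 and 0.0172, with 4 of 10 such fits below 0.01. The arches whose absence ended the call were wild-type arches 2 (0.0172), 3 (0.0153), 4 (0.0136) and 5 (0.0167) and *Grhl2-/-* arches 4 (0.0137) and 5 (0.016), all FDR values of limma-voom. Beside this result, the summed endothelial markers were between 345 and 392 CPM in wild-type and between 383 and 447 CPM in *Grhl2-/-* arches, with 0 of 7 called. The parts of the endothelial, epithelial and ectomesenchyme markers in this result were not tested.

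**Figure D1:**
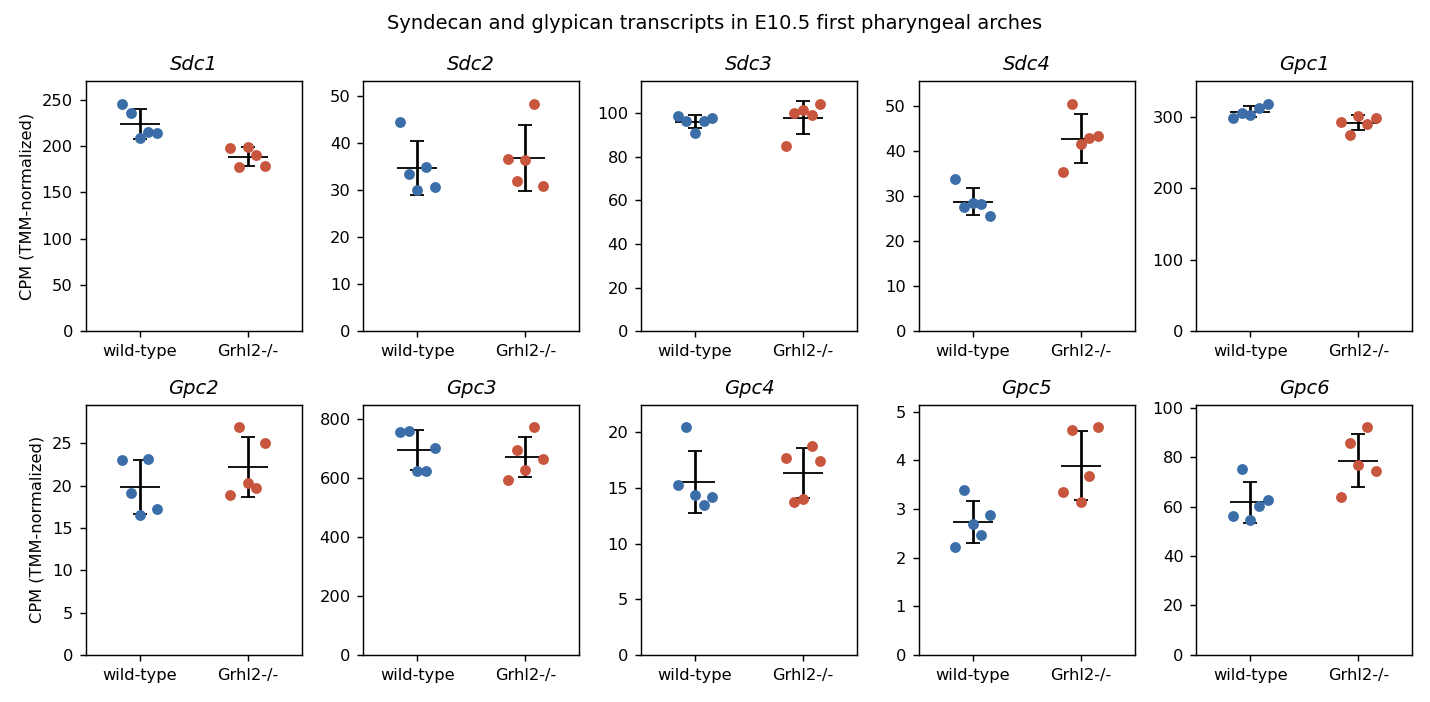
TMM-normalized CPM (linear axes from 0) of the 10 syndecans and glypicans in each arch. Each point is 1 arch, the bar is the mean and the whisker the SD of 5 arches; the genotypes separate in Sdc4 (28.7 against 42.8 CPM) and Sdc1 (224 against 189 CPM) and overlap in the other 8.

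The fold difference of *Sdc1*, a syndecan of epithelia and of condensing mesenchyme, was smaller than that of *Sdc4*. *Sdc1* was lower in every *Grhl2-/-* arch than in any wild-type arch. It was at 246, 235, 209, 215 and 214 CPM in wild-type arches 1 to 5 (224 ± 16, SD, n = 5). It was at 198, 177, 198, 190.3 and 179 CPM in *Grhl2-/-* arches 1 to 5 (189 ± 10.1, SD, n = 5). The highest wild-type values were those of arches 1 and 2, the pair low in sensory neuron markers. The log2 fold change was -0.24 ± 0.0542 (SE), with a 95% confidence interval of -0.36 to -0.13. Its FDR of 0.0234 in limma-voom did not pass the threshold, whereas DESeq2 gave -0.25 with an FDR of 0.000466. It was -0.19 (FDR = 0.107, limma-voom) without wild-type arches 1 and 2. Of the 12 epithelial markers, 11 had a log2 fold change below 0 (median -1.78), from -3.32 for the claudin gene *Cldn4* to 0.02 for the keratin gene *Krt19*. The parts of the epithelial and ectomesenchyme markers in the difference of *Sdc1* were not tested.

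*Sdc3*, a syndecan best known from nervous tissue and muscle, gave almost the same level in both genotypes. It was at 98.8, 96.1, 91.0, 96.5 and 97.9 CPM in wild-type and at 85.1, 99.8, 101, 99.1 and 104 CPM in *Grhl2-/-* arches 1 to 5. The log2 fold change of 0.02 had an interval of -0.09 to 0.14 (FDR = 0.799, limma-voom), so log2 differences above 0.14 in size lay outside it. It was 0.02 again (FDR = 0.887) without wild-type arches 1 and 2. Its exons overlap 2 antisense genes, *Gm12970* and *Gm26716*, and the name of the count table points to counting on the reverse strand, as stranded libraries of this kind call for, although no counting setting is stated in the sources used here. *Sdc2*, a syndecan of mesenchymal cells, was between 30.1 and 44.4 CPM in wild-type and between 30.8 and 48.3 CPM in *Grhl2-/-* arches. Its log2 fold change was 0.09 with an interval of -0.19 to 0.38 (FDR = 0.674, limma-voom), and it was 0.18 (FDR = 0.508) without wild-type arches 1 and 2. The highest value of each genotype was that of wild-type arch 1 and of *Grhl2-/-* arch 4.

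The syndecan genes share short identical coding stretches in the conserved cytoplasmic tail, which are shown because reads could in principle be assigned to the wrong member there. Capitals mark the 23 bases that *Sdc1*, *Sdc3* and *Sdc4* have in common.
Sdc3 and Sdc4: taccgcATGAAGAAGAAGGACGAAGGCAG
Sdc1 and Sdc3: ATGAAGAAGAAGGACGAAGGCAGctac
The first stretch lies at chr4:130822705-130822733 (plus strand) in *Sdc3* and at chr2:164426147-164426175 (minus strand) in *Sdc4*, and the second at chr12:8791706-8791732 (plus strand) in *Sdc1*, all on GRCm38 with GENCODE release M21 models. At 29 bases the first was the longest exact match between transcripts of any 2 different members, shorter than the 50-base reads, so no read without mismatches matched 2 members over its whole length.

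Among the glypicans, none passed the threshold. *Gpc6* and *Gpc5*, neighbours on chromosome 14 that are 400135 bases apart, had the largest differences. *Gpc6* was at 56.3, 75.4, 54.4, 60.1 and 62.7 CPM in wild-type arches 1 to 5 and at 64.1, 85.8, 76.7, 92.0 and 74.2 CPM in *Grhl2-/-* arches 1 to 5. Wild-type arch 2 lay within the *Grhl2-/-* range, and the other wild-type arches were below all *Grhl2-/-* arches. The log2 fold change was 0.34 (95% confidence interval 0.11 to 0.58, FDR = 0.0688, limma-voom), and it was 0.39 (FDR = 0.133) without wild-type arches 1 and 2. *Gpc5*, the member with the lowest level, was at 2.23, 3.38, 2.68, 2.47 and 2.87 CPM in wild-type and at 3.35, 4.61, 3.15, 3.67 and 4.67 CPM in *Grhl2-/-* arches 1 to 5. Only the highest wild-type arch overlapped the *Grhl2-/-* range. Its log2 fold change of 0.49 had a wide interval, 0.15 to 0.83 (FDR = 0.0754, limma-voom), from 49 to 121 reads per arch. Leaving out wild-type arches 1 and 2 gave 0.50 (FDR = 0.201). Exons of *Gpc5* overlap *Gm20713* on the opposite strand.

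*Gpc3* and *Gpc4* are neighbours too, on the X chromosome and 107173 bases apart, and neither differed beyond its spread. *Gpc3* was at 758, 762, 623, 626 and 703 CPM in wild-type and at 595, 695, 627, 772 and 665 CPM in *Grhl2-/-* arches 1 to 5. The ranges overlapped almost fully, and the log2 fold change of -0.05 (interval -0.22 to 0.12, FDR = 0.717, limma-voom) became 0.03 without wild-type arches 1 and 2. *Gpc4*, a glypican linked to Wnt signalling, was between 13.5 and 20.4 CPM in wild-type and between 13.8 and 18.8 CPM in *Grhl2-/-* arches (log2 fold change 0.08, interval -0.20 to 0.35, FDR = 0.728, limma-voom). Leaving out wild-type arches 1 and 2 gave 0.20 (FDR = 0.413). Its wild-type arch 2, at 20.4 CPM, stood apart from the other wild-type arches, of which the highest was 15.2 CPM.

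*Gpc1*, a glypican of many tissues including the nervous system, had the tightest values among the members. It was between 299 and 318 CPM in wild-type arches (307 ± 8.02, SD, n = 5) and between 275 and 302 CPM in *Grhl2-/-* arches (292 ± 10.6, SD, n = 5). The coefficient of variation was 2.61% and 3.63%, and the log2 fold change was -0.08 with an interval of -0.15 to 0.00 (FDR = 0.176, limma-voom), or -0.11 (FDR = 0.234) without wild-type arches 1 and 2. Exons of *Gpc1* overlap those of *Ankmy1* on the opposite strand. *Gpc2*, a glypican of developing neurons, was between 16.5 and 23.2 CPM in wild-type and between 18.9 and 26.9 CPM in *Grhl2-/-* arches (log2 fold change 0.16, interval -0.11 to 0.44, FDR = 0.419, limma-voom). Without wild-type arches 1 and 2, which were at 23.0 and 19.1 CPM, it was 0.20 (FDR = 0.49). The second identifier of that name, ENSMUSG00000106247, had 0 to 2 reads per arch, and in GENCODE M21 it is *Gm43720*, whose exons share the strand and part of the sequence of *Gpc2* and of *Gal3st4*. How reads in the shared exons were counted is not given in the sources used here.

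**Figure D2:**
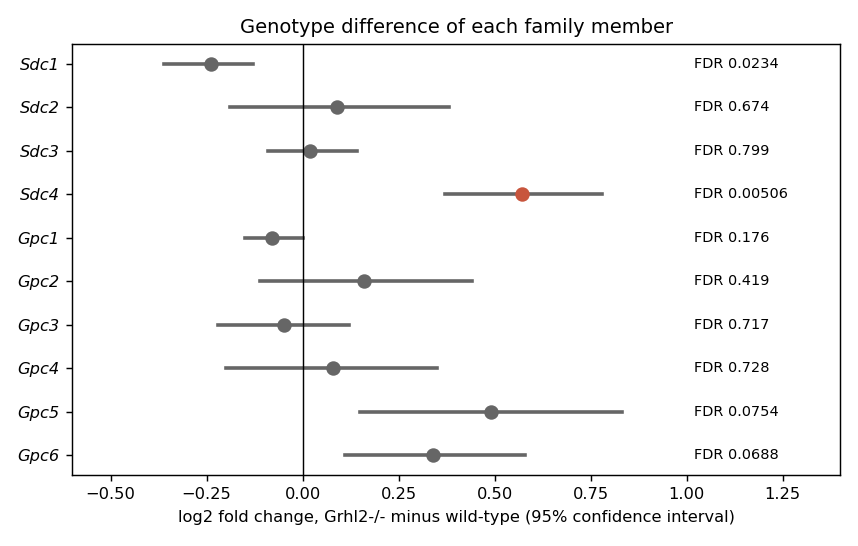
Log2 fold change (Grhl2-/- minus wild-type, horizontal axis) of each member with its 95% confidence interval from limma-voom and the FDR over all 14561 genes. Sdc4 (red) passed FDR 0.01, and the intervals of Sdc1, Gpc5 and Gpc6 leave out 0 without passing it.

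To compare members with each other, CPM were divided by the length of the union of annotated exons (CPM per kb). In wild-type arches *Gpc3* stood first with 258 ± 25.2 CPM per kb, rank 72 of the 14526 tested genes with a length. *Gpc1* (59.6 ± 1.56) and *Sdc1* (58.7 ± 4.19) followed, with overlapping ranges that did not order them, and then *Sdc3* (16 ± 0.504). Below it, without overlap, *Sdc4* (11.3 ± 1.18) overlapped *Sdc2* (9.83 ± 1.64), and *Sdc2* overlapped *Gpc6* (9.61 ± 1.29). *Gpc4* (5.86 ± 1.06) and *Gpc2* (4.64 ± 0.734) lay lower and overlapped each other, and *Gpc5* was last with 0.612 ± 0.0981. In *Grhl2-/-* arches the same 3 genes led, with *Gpc1* (56.5 ± 2.05) now above *Sdc1* (49.5 ± 2.66) without overlap. *Sdc4* (16.8 ± 2.12), *Sdc3* (16.3 ± 1.24), *Gpc6* (12.2 ± 1.68) and *Sdc2* (10.4 ± 1.96) then formed a run in which each overlapped the next. *Gpc4* (6.16 ± 0.864) and *Gpc2* (5.18 ± 0.832) overlapped each other below them, and *Gpc5* was last (0.874 ± 0.160). All of these are means of CPM per kb ± SD over 5 arches. The middle of the order depended on the length used. Divided by the longest transcript instead, *Gpc6* was at 14.9 CPM per kb in wild-type arches, above *Sdc4* (11.7) and *Sdc2* (9.83), and *Gpc5*, still last, was at 0.961.

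The summed syndecan level was 95.9 ± 6.91 CPM per kb in wild-type and 93.1 ± 3.12 CPM per kb in *Grhl2-/-* arches, with overlapping ranges, while its makeup differed. *Sdc1* made up 61.3 ± 1.06% of it in wild-type and 53.2 ± 2.79% in *Grhl2-/-* arches, with ranges of 60.4 to 63.0% and 50.5 to 57.5%. *Sdc4* made up 11.8 ± 0.684% and 18.1 ± 2.32%, with ranges of 11.1 to 12.5% and 15.4 to 21.6%. The level of *Sdc1* was 5.23 ± 0.379 times that of *Sdc4* per kb in wild-type arches (4.87 to 5.69) and 3.0 ± 0.517 times in *Grhl2-/-* arches (2.35 to 3.74). These shares combine the opposite differences of *Sdc1* and *Sdc4* given above and are no separate evidence for them. Glypican transcripts were mostly *Gpc3*, at 76.2 ± 1.62% of the summed level in wild-type and 75.4 ± 1.61% in *Grhl2-/-* arches, and *Gpc1* made up 17.7 ± 1.53% and 17.2 ± 1.67%. The summed glypican level was 338 ± 26.5 and 330.3 ± 26.6 CPM per kb, again with overlapping ranges.

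**Figure D3:**
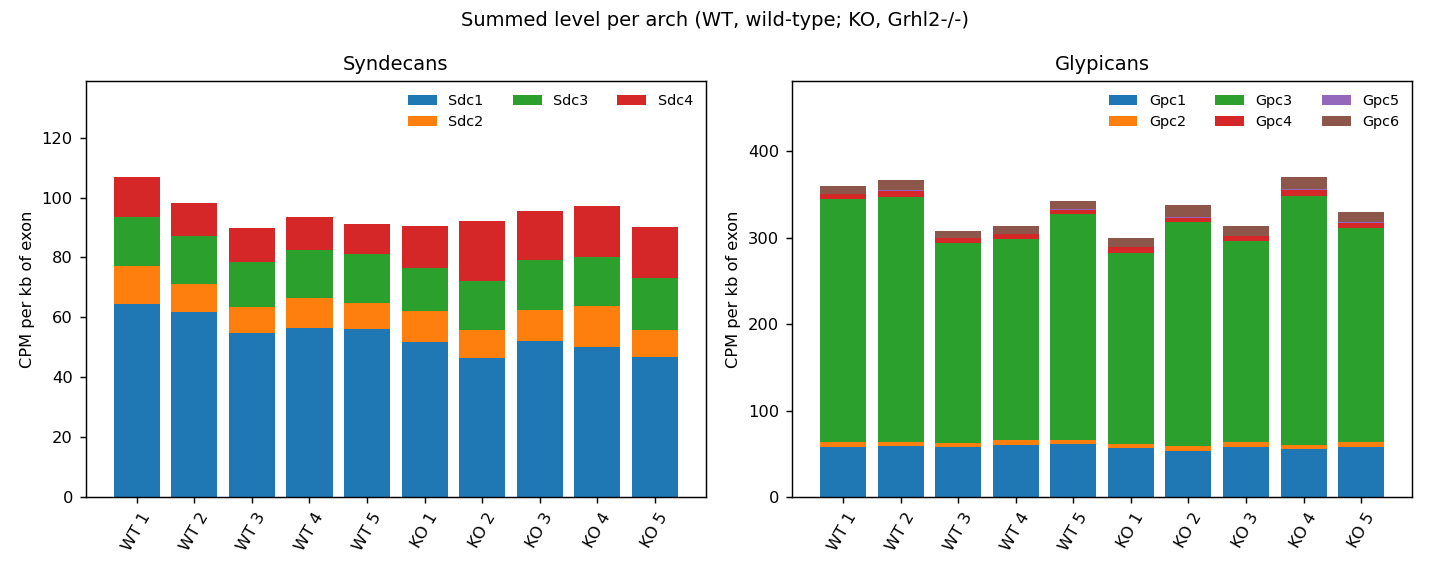
Level of each syndecan (left) and glypican (right) in each arch, in CPM per kb of exon, stacked so that the bar height is the summed level of the family. Sdc1 takes the largest part of the syndecan bars and Gpc3 of the glypican bars, and the Sdc4 part is larger in the Grhl2-/- arches (18.1% against 11.8% on average).

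Across the 10 arches, deviations of log2 CPM from the genotype mean were compared between *Sdc4* and 12691 genes with a mean of at least 1 CPM, to see which genes varied with it within a genotype. The closest were *Acadsb*, a mitochondrial dehydrogenase (Pearson's r = 0.979), *Grin2c*, a glutamate receptor subunit (r = 0.975), and *Gm14399* (r = 0.966). Of these, *Grin2c* also differed between genotypes, from 0.784 to 2.99 CPM (log2 fold change 1.90, FDR = 0.0014, limma-voom), and the other two did not pass the threshold. Among the members, r with *Sdc4* ranged from -0.682 for *Gpc1* to 0.733 for *Gpc2*. The arches share a library preparation protocol but differ in depth, and these values describe 10 points each. The closest genes were picked as the highest of 12691.

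The region upstream of the 2 members whose genotypes separated is shown for its GC boxes, the letters GGGCGG on either strand, which are in capitals where they read on the printed strand. RefSeq promoter windows (GRCm38.p6) were matched for 7 of the 10 members, all but *Sdc2*, *Gpc1* and *Gpc6*. For *Sdc4* the 250 bases upstream of the RefSeq start are printed (chr2:164443189-164443438, minus strand), which also lie upstream of the coding transcript in GENCODE and in an intron of a longer non-coding one. For *Sdc1* the 177 bases that end at the GENCODE start are printed (chr12:8771146-8771322, plus strand), since that start lies upstream of the RefSeq one.
Sdc4: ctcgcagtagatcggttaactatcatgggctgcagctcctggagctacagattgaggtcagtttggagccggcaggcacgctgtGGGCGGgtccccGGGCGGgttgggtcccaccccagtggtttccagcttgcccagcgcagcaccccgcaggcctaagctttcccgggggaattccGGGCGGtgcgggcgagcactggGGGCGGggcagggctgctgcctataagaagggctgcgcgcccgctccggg
Sdc1: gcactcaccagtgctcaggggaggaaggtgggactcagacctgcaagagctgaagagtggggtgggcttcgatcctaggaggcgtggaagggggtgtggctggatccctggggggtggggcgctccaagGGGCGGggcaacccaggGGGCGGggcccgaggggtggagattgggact
The 250 bases upstream held GGGCGG in 7 of 7 members, with 4 copies in *Sdc4* and 3 in *Sdc1*, 2 of them in the printed bases, against 32.7% of all 32851 windows. GC content of the whole 300-base windows was between 54.7% and 77.7%, when the median of all windows was 52.7%. The grainyhead site AACCGGTT, read on both strands, was in 0 of the 7 windows and in 0.146% of all windows, and the same site with 1 base left free, AACCNGTT, which includes the first, was in 0 of 7 and in 2.09% of all. This says only that these letters are not in these windows.

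The genes that build, trim and use the chains were followed as 9 lists of 112 genes, of which 109 were tested. Of these, 5 were higher and 2 were lower at FDR below 0.01, against 0.879% and 1.09% of all genes. Their median log2 fold change was 0.10, and 82 were above 0 and 27 below, when 7671 of the 14561 genes tested were above 0.

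No gene of the machinery that starts and extends the chains was called, neither among the 12 genes of the linkage region and chain elongation (median log2 fold change 0.08) nor among the 8 genes of sulfate and sugar precursor supply (median 0.02). In the first list the largest values were those of *Extl1*, a relative of the exostosins, at -0.22 (FDR = 0.706), *Pxylp1*, the xylose phosphatase that lets chains extend, at 0.20 (FDR = 0.0981) and *Ext2*, a subunit of the heparan sulfate polymerase, at 0.17 (FDR = 0.0846), all with limma-voom. In the second they were those of *Papss2*, which makes the sulfate donor, at 0.28 (FDR = 0.354), its Golgi transporter *Slc35b2* at 0.16 (FDR = 0.0429) and the sulfate transporter *Slc26a2* at -0.14 (FDR = 0.0577). Leaving out wild-type arches 1 and 2 moved *Extl1* to -0.47 and *Pxylp1* to 0.13, neither of them called.

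Of 14 tested genes that modify the chain, 1 was lower. *Glce*, the epimerase that turns glucuronic into iduronic acid and makes chains flexible, was at 100.2, 99.9, 104, 96.2 and 102 CPM in wild-type arches 1 to 5 and at 89.9, 81.8, 88.0, 86.4 and 77.1 CPM in *Grhl2-/-* arches 1 to 5. The groups did not overlap and the log2 fold change was -0.25 ± 0.0464 (SE), with an FDR of 0.00994 just inside the threshold of limma-voom. Leaving out single arches kept the call in 1 of 10 fits, with FDR values up to 0.0335, and without wild-type arches 1 and 2 the log2 fold change was -0.27 (FDR = 0.0629). The sulfotransferases *Hs3st5* (2.19, FDR = 0.131), *Ndst3* (0.73, FDR = 0.434) and *Hs3st1* (0.50, FDR = 0.0957) had larger log2 fold changes with wide intervals. *Hs3st5* had 0 and 1 reads in wild-type arches 1 and 2 and 25 to 56 reads in the others, and *Ndst3* was at 2.04 and 3.99 CPM in those 2 arches and at 7.28 to 23.6 CPM in the others. Without wild-type arches 1 and 2 the log2 fold changes were 0.26 for *Hs3st5*, -0.21 for *Ndst3* and 0.32 for *Hs3st1*, none of them called.

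None of the 12 genes that edit or degrade chains was called, with a median log2 fold change of 0.28. *Naglu*, a lysosomal enzyme of heparan sulfate breakdown, averaged 5.43 ± 0.951 CPM over wild-type arches and 8.25 ± 0.978 CPM over *Grhl2-/-* arches, without overlap (log2 fold change 0.60, FDR = 0.0193, limma-voom). *Arsg*, a lysosomal sulfatase, was at 1.58 ± 0.430 and 2.44 ± 0.422 CPM, also without overlap (0.64, FDR = 0.0729), and *Hpse2*, a heparanase relative, had a log2 fold change of 1.18 and an FDR of 0.419. Without wild-type arches 1 and 2 these values were 0.47 for *Naglu* (FDR = 0.154), 0.45 for *Arsg* (FDR = 0.285) and 0.62 for *Hpse2* (FDR = 0.797).

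Of the 10 other proteins that carry heparan sulfate, in the matrix or as an occasional modification, 1 was higher and 9 had a log2 fold change above 0 (median 0.34). *Tgfbr3*, betaglycan, a co-receptor of TGF-beta ligands, was at 27.6, 27.9, 27.3, 29.2 and 28.0 CPM in wild-type and at 33.8, 40.8, 36.3, 43.8 and 37.4 CPM in *Grhl2-/-* arches 1 to 5. All *Grhl2-/-* arches were above all wild-type arches, with a log2 fold change of 0.45 ± 0.0686 (SE, FDR = 0.00317, limma-voom), and of 0.43 (FDR = 0.0466) without wild-type arches 1 and 2. It was called in 4 of 10 fits that left out 1 arch. The groups did not overlap either in *Agrn* (0.31, FDR = 0.0354, limma-voom) and *Col18a1* (0.27, FDR = 0.0115), which were not called. Without wild-type arches 1 and 2 these were at 0.25 (FDR = 0.151) and 0.28 (FDR = 0.0596). *Spock1* (1.07, FDR = 0.134), *Spock2* (0.96, FDR = 0.268) and the neuropilin gene *Nrp1* (0.35, FDR = 0.129) had overlapping groups. *Spock2* was at 4.91 and 4.42 CPM in wild-type arches 1 and 2 and at 15.1 to 44.5 CPM in the others, and without those 2 arches the log2 fold changes were 0.57 for *Spock1*, -0.04 for *Spock2* and 0.20 for *Nrp1*.

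Among 11 tested genes that process core proteins or release them from the membrane, 1 was lower. *Gpld1*, a phospholipase that cuts GPI anchors, was between 0.837 and 1.32 CPM in wild-type and between 0.271 and 0.498 CPM in *Grhl2-/-* arches (log2 fold change -1.49 ± 0.241, SE, FDR = 0.00459, limma-voom), from as few as 7 reads per arch. It was called in 5 of 10 fits that left out 1 arch, and its log2 fold change was -1.36 (FDR = 0.0398) without wild-type arches 1 and 2. The protease inhibitor *Timp3* (0.57, FDR = 0.11), the membrane protease *Mmp14* (0.34, FDR = 0.0279) and the Wnt deacylase *Notum* (-0.24, FDR = 0.262) did not pass, and without wild-type arches 1 and 2 they were at 0.34, 0.31 and -0.11.

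Of 13 partners of syndecans and glypicans, 1 was higher: *Ptprs*, a receptor phosphatase that binds heparan sulfate chains, at 377 to 416 CPM in wild-type and 457 to 528 CPM in *Grhl2-/-* arches (log2 fold change 0.31 ± 0.0452, SE, FDR = 0.00235, limma-voom). It was at 0.29 (FDR = 0.0373) without wild-type arches 1 and 2, and it was called in 8 of 10 fits without 1 arch. The endocytic receptor *Lrp1* had a log2 fold change of 0.43 (FDR = 0.042), *Synj2*, a lipid phosphatase, one of 0.16 (FDR = 0.378, or 0.09 without wild-type arches 1 and 2) and *Cask*, a PDZ protein that binds syndecan tails, one of 0.10 (FDR = 0.175).

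Of 20 growth factors and matrix proteins that bind heparan sulfate, 3 were higher and 0 lower (median log2 fold change 0.11). *Bmp2*, a bone morphogenetic protein, was at 1.91, 3.27, 2.58, 2.40 and 2.14 CPM in wild-type and at 5.67, 4.88, 5.09, 5.98 and 5.14 CPM in *Grhl2-/-* arches 1 to 5, and no *Grhl2-/-* arch came near the wild-type range. Its log2 fold change was 1.12 ± 0.137 (SE, FDR = 0.000752, limma-voom), it was called in 10 of 10 fits without 1 arch, and its FDR was 0.00299 without wild-type arches 1 and 2. *Cxcl12*, a chemokine held on heparan sulfate, was at 143 to 163 CPM in wild-type and 177 to 199.7 CPM in *Grhl2-/-* arches (0.33 ± 0.0487, SE, FDR = 0.0026), and *Slit2*, a guidance ligand that binds glypican 1, at 46.4 to 57.7 and 64.1 to 73.8 CPM (0.36 ± 0.0641, SE, FDR = 0.00753). Without wild-type arches 1 and 2 their log2 fold changes were 0.33 (FDR = 0.0165) and 0.38 (FDR = 0.0419), and they were called in 7 and 3 of 10 fits without 1 arch. None of the 9 chondroitin sulfate proteoglycans, which start from the same linkage sugars, was called. Among those with a mean of at least 1 CPM, the largest log2 fold changes were those of *Ncan* at 0.78 (FDR = 0.294), *Cspg5* at 0.60 (FDR = 0.201) and *Ptprz1* at -0.37 (FDR = 0.0716), with limma-voom. *Ncan* and *Cspg5* were lowest in wild-type arches 1 and 2 of all arches, and without these the values were 0.14, 0.20 and -0.39.

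**Figure D4:**
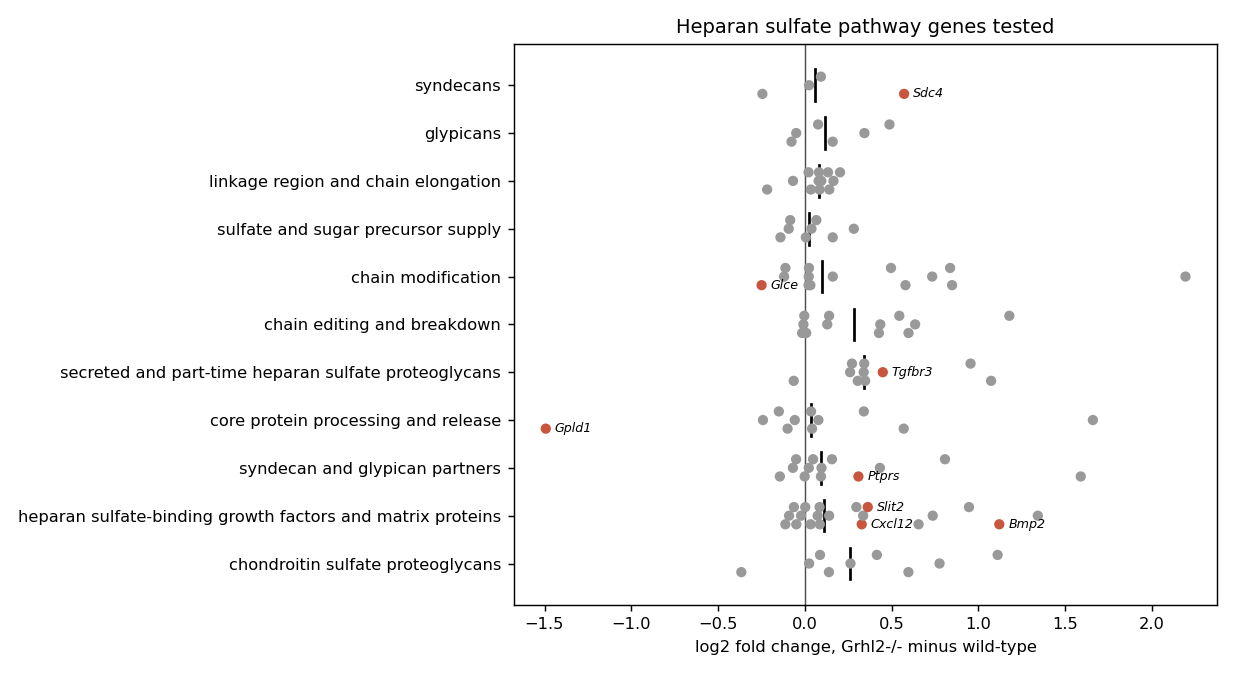
Log2 fold change (Grhl2-/- minus wild-type, horizontal axis) of each tested gene of the 2 families and of the 9 lists around them, 1 point per gene, with the median of each list as a black bar. Red points passed FDR 0.01 in limma-voom and are named; Bmp2 at 1.12 and Gpld1 at -1.49 lie farthest from 0 among them.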

How the data were processed

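The authors isolated RNA from single arches, made strand-specific libraries after removal of ribosomal RNA, sequenced them as single-end 50-base reads, aligned the reads to GRCm38 with STAR and counted them with featureCounts. The submitters' processing notes also name edgeR 3.18.1 and limma 3.32.7. The deposited counts are whole reads per gene, not normalized. Another deposited table holds the authors' own comparison and was not used.

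Counts were normalized by TMM and tested with limma-voom (limma 3.58.1, edgeR 4.0.16, R 4.3.3), genotype being the sole term, on 14561 genes that reached 10 counts in 1 arch or more. Genes at FDR (Benjamini-Hochberg over all of them) below 0.01 were called. The methods were tested on simulated data. At 22188454 to 28801378 counts per arch, 3 reads correspond to 0.104 to 0.136 CPM, which covers counting error only. Each arch is a separate embryo.

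The alternatives were DESeq2 1.42.0, the quasi-likelihood test of edgeR, other scalings and filters, quality weights, the label number as a block, a sensory neuron covariate, an FDR of 0.05 and leaving out arches. The members and lists were chosen with earlier results of these data known. Genes named were the members, *Grhl2*, called genes of each list (with fewer than 3 called, also up to 3 with the largest log2 fold change at a mean of at least 1 CPM) and the 3 genes most like *Sdc4*. *Msx1*, *Alx4*, *Pdgfra*, *Cldn4*, *Krt19*, *Agrn* and *Col18a1* were chosen after their values were seen. Coordinates and lengths are from GENCODE M21, upstream sequences from RefSeq (GRCm38.p6). Protein sequences were not analysed here.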

Additional observations from a re-analysis of the deposited data

Results flagged for a closer look

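Dixon's criterion was applied within each genotype to the members and to the summed level of each cell type marker list. It compares the highest and lowest of the 5 arches with their nearest neighbour. Other genes were not screened in this way. Of 36 groups of 5 arches, 2 held an arch that stood apart, when chance gives 1.8. *Sdc3* was at 85.1 CPM in *Grhl2-/-* arch 1, the lowest of its group, and the next lowest arch was at 99.1 CPM. *Gpc4* was at 20.4 CPM in wild-type arch 2, the highest of its group, and the next highest was at 15.2 CPM.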

How the results depend on the processing

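*Sdc4* kept its direction in every alternative fit, with log2 fold changes between 0.51 and 0.63 when 1 arch was left out, and its FDR was 0.00458 with edgeR's quasi-likelihood test and 5.83e-07 with DESeq2. With the sensory neuron covariate its log2 fold change was 0.59 (FDR = 0.0129, limma-voom). Without wild-type arches 1 and 2 its log2 fold change was 0.61 (FDR = 0.0185, limma-voom). Both missed FDR 0.01, so that 0 members were called higher there. Leaving out single arches gave 0 to 1 members called higher. One member, *Sdc1*, was called lower with DESeq2 (-0.25) and at an FDR of 0.05. *Gpc3* turned to 0.04 with the covariate and to 0.03 without those arches, *Sdc2* to -0.01 without *Grhl2-/-* arch 4 (range over left-out arches -0.01 to 0.18) and *Sdc3* to -0.01 without *Grhl2-/-* arch 5 (-0.01 to 0.07), none of them called. Over the 9 lists, 13 genes were called higher with DESeq2, 15 at an FDR of 0.05, 3 with the covariate, 1 without the wild-type arches 1 and 2 and 1 to 6 without a single arch. Called lower were 1 with library size alone, with median-of-ratios size factors and with no filter, 0 with the covariate and without the wild-type arches 1 and 2, and 0 to 2 without a single arch. The causes were not tested. Of the genes named as called in the lists, *Bmp2* and *Cxcl12* stayed called with the covariate, and the FDR of the others was between 0.0105 and 0.0367. Over all genes, 128 were higher and 158 lower, against 520 and 553 with DESeq2, 57 and 117 with the covariate and 19 and 90 without wild-type arches 1 and 2. Without division by length, the wild-type share of *Sdc1* was 58.4% and that of *Gpc3* 62.9%.

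The labels give arches of both genotypes some of the same numbers without saying what they stand for. Pairs of arches with the same number had correlations of their deviations from -0.364 to 0.54, and arches were not treated as pairs. With the number as a replicate block, the log2 fold change of *Sdc4* was 0.50 (FDR = 0.0222, limma-voom), those of *Gpc5*, *Gpc2*, *Sdc2* and *Gpc4* were 0.31, 0.01, 0.25 and 0.13 and that of *Sdc3* was 0.0049, none of them called, 0 members were called higher, 2 genes of the 9 lists were called higher and 0 lower (of the genes named as called, *Bmp2* stayed so at an FDR of 0.00918 and the others were between 0.0118 and 0.0327), and 60 of all genes were higher and 69 lower.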
